A study of Mus musculus with 6 samples.

Results

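RNA levels of genes for the proton-pumping vacuolar ATPase (V-ATPase) and for transcription factors of ionocytes were compared between uninjured and injured mouse tracheal epithelium. The members were 10 genes, chosen by name with earlier results of these data known, and every probe set that the array annotation assigned to exactly 1 of these symbols was used. This gave 16 of the 45037 probe sets tested, for 9 of the 10 genes. Of 18193 genes with a probe set of their own, 9 were thus members. The ionocyte factors Foxi1 and Ascl3 and the restricted subunits Atp6v1c2, Atp6v1b1, Atp6v0d2 and Atp6v0a4 were measured by 7 probe sets, and the ubiquitous subunits Atp6v1a, Atp6v1c1 and Atp6v1b2 by 9. The remaining restricted subunit, Atp6v1g3, was not measured here, since no annotated probe set carried its symbol alone.

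The epithelium came from C57Bl/6 males, aged 8 to 12 weeks. Of 6 samples, 3 were from uninjured mice (control) and 3 from mice killed 48 h after breathing 500 ppm SO2 for 4 h (48 hpi). Each sample pooled 4 tracheas, so that differences between single animals were reduced but not removed. In both groups the epithelium was freed with Dispase and trypsin, and CD45+ leukocytes were depleted on magnetic beads. Airway epithelial genes were bright in control, such as Scgb1a1 at 14.5 and Krt5 at 11.2. The leukocyte gene Ptprc lay within background in both groups. Of 12 markers of macrophages and osteoclasts, however, 6 were above background in control and 5 at 48 hpi. RNA was hybridized to Affymetrix mouse genome arrays, and levels are given as log2 values after robust multi-chip analysis (RMA). A level counted as above background when the group mean exceeded 4.94 in control or 4.81 at 48 hpi, the 95th percentile over 79 probe sets of chemosensory receptor genes (olfactory, vomeronasal, trace amine) that airway epithelium is not known to use. Changes are 48 hpi minus control on the log2 scale, from limma over all 45037 probe sets, and a probe set was called higher or lower at a Benjamini-Hochberg adjusted p below 0.05. A gene with several probe sets was counted by its brightest, judged by the mean of all 6 arrays. In these bulk samples, fewer cells of a type and less RNA per cell cannot be told apart.

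Ionocytes are rare epithelial cells of the airway that were named for their likeness to the ion-transporting cells of fish skin and frog epidermis. Foxi1, a forkhead transcription factor, specifies them, and Ascl3, a basic helix-loop-helix factor, marks them. The V-ATPase is a rotary pump that moves protons across membranes at the cost of ATP, with a cytosolic V1 sector that splits ATP and a membrane V0 sector that carries the protons. Every cell uses it to acidify lysosomes and endosomes, with widely expressed subunits. Specialised acid-secreting cells, such as the intercalated cells of the kidney, the osteoclast and the ionocyte, add restricted paralogs of subunits B, C, G, a and d, and Foxi1 is known to drive several of these genes in kidney and inner ear.

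The promoters of the 3 restricted members that were measured above background are printed here with that of Atp6v1a, the catalytic subunit that all pumps share, because these genes separated after injury. Each runs from 250 bases before to 50 bases after the annotated start, 5′ to 3′, from RefSeq on GRCm38.p6. Promoters were found in that table for Foxi1, Ascl3, Atp6v1c2, Atp6v1b1, Atp6v1g3, Atp6v0a4 and Atp6v1a, and not for Atp6v0d2, Atp6v1c1 and Atp6v1b2. Capitals mark the matches to the searched motifs.
Ascl3, chr7:109731683-109731982, minus strand: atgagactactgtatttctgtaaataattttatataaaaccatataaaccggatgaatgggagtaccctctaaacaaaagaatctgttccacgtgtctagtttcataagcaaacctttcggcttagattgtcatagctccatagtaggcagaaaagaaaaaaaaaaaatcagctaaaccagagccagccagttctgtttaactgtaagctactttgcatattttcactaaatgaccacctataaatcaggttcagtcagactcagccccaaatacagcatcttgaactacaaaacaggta
Atp6v1c2, chr12:17324681-17324980, minus strand: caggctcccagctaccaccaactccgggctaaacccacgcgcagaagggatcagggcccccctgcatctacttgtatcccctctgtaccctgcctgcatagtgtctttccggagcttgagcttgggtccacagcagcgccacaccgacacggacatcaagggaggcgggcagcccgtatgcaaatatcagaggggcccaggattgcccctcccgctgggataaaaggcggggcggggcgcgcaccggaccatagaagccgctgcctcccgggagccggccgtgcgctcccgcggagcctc
Atp6v1b1, chr6:83742767-83743066, plus strand: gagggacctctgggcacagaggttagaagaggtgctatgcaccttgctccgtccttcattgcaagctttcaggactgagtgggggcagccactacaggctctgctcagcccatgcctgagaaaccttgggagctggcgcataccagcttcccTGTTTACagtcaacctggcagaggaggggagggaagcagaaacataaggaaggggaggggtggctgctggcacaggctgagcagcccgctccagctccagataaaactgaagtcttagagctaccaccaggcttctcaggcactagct
Atp6v1a, chr16:44139210-44139509, minus strand: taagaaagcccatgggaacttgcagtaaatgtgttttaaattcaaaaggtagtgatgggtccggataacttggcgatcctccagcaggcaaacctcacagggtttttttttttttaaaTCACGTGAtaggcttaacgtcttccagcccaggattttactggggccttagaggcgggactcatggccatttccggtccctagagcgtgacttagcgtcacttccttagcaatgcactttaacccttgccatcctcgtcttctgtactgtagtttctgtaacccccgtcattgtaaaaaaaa
The motifs searched on both strands were a forkhead core (GTAAACA or ATAAACA), an E-box of the type bound by Ascl factors (CAGCTG) and an E-box of the type bound by TFEB and TFE3 (TCACGTGA), none of which overlapped in these windows. The promoter of Atp6v1b1 held 1 forkhead match, printed as TGTTTAC and read as GTAAACA on the opposite strand, beginning 98 bases before the start, and the promoter of Atp6v1a held 1 TFE-type match, beginning 132 bases before the start. The other 5 of the 7 promoters had none of the 3 motifs. Of all 32851 promoters in the table, 7.97% held the forkhead core, 16.3% the Ascl-type E-box and 0.974% the TFE-type E-box. The promoter of Atp6v1c2 was rich in G and C (66.0%, 22 CpG), and that of Ascl3 was poor in them (36.0%, 3 CpG), beside 57.3% and 3 CpG for Atp6v1b1 and 45.3% and 10 CpG for Atp6v1a.

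Atp6v1b1, Atp6v1c2 and Ascl3 were lower at 48 hpi, whereas of the ubiquitous subunits Atp6v1c1 was higher, Atp6v1b2 was slightly lower and Atp6v1a was not called. Foxi1 was called lower too, but at levels within background. Of the 6 measured ionocyte factors and restricted subunits 4 were lower and 0 were higher, with a median change of −0.73. Over all genes by their brightest probe set, 16.1% were called lower and 18.4% higher, with a median change of −0.02. Over all probe sets, 13.9% were called lower and 14.5% higher, and 51.0% of the calls were higher. That balance depended on the scaling. With the arrays shifted to a common median 64.1% of the calls were higher, and with equal hybridization controls 84.5%, a shift that moves the median change of all probe sets by 0.34. With equal hybridization controls the restricted genes called lower were 2, Atp6v1b1 and Atp6v1c2. With an unmoderated test, which compares the groups of each probe set by its own spread alone, they were also 2 after adjustment, Foxi1 and Atp6v1c2.

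**Figure D1:**
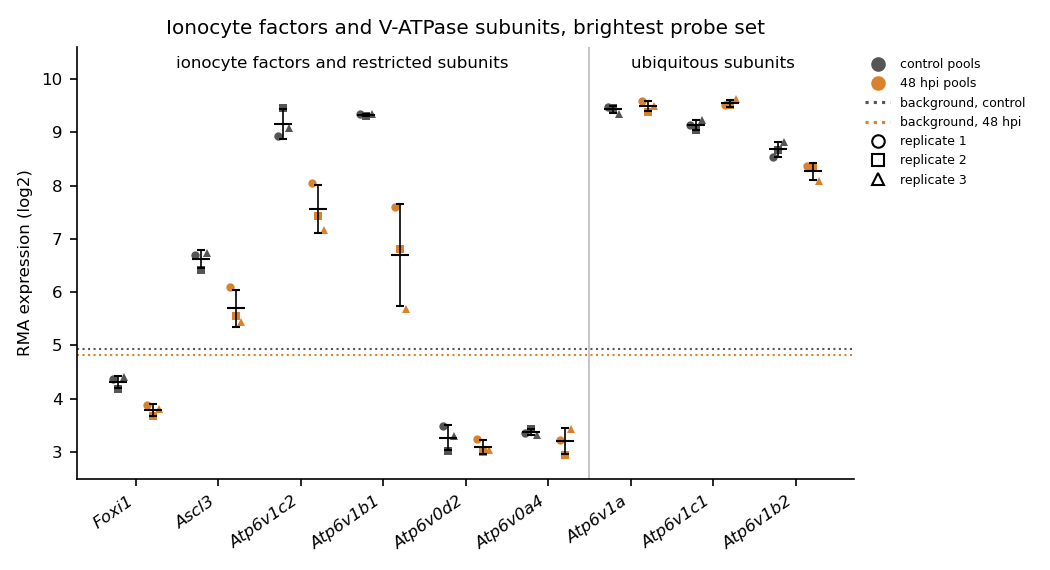
RMA expression (log2, vertical axis) of the measured members, by the brightest probe set of each gene, in the 3 control pools (grey) and 3 pools at 48 hpi (orange). Symbols mark the replicate, bars the mean and SD, and dotted lines the group's background level. All 48 hpi values of Ascl3, Atp6v1c2 and Atp6v1b1 lie below the control values, while Foxi1, Atp6v0d2 and Atp6v0a4 lie below the background lines in both groups.

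Among the ionocyte factors, Ascl3 gave the clearer signal. Ascl3 (1420780_at) read 6.69, 6.42 and 6.74 in the control pools and 6.10, 5.55 and 5.43 at 48 hpi. The groups did not overlap, and the levels stayed above background in both. Its change was −0.92 (SE 0.18, limma adjusted p = 0.00601), so that the control mean was 1.90-fold higher. The call was lost with the unmoderated test (adjusted p = 0.069) and with equal hybridization controls (−0.58, limma adjusted p = 0.0652). Foxi1, the factor that specifies ionocytes, was measured by 1 probe set (1449458_at). Its values were 4.36, 4.19 and 4.40 in control and 3.89, 3.67 and 3.81 at 48 hpi, all within background. The change was −0.53 (SE 0.10, limma adjusted p = 0.00577), and because the control mean minus the background level was −0.62 it gives no measure of how far the transcript fell. With equal hybridization controls the change of Foxi1 was −0.18 (limma adjusted p = 0.56).

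Atp6v1b1 encodes the B1 subunit, the nucleotide-binding partner of the catalytic subunit in acid-secreting cells, and is known as a gene of distal renal tubular acidosis with deafness. Its probe set (1419373_at) read 9.34, 9.30 and 9.34 in control and 7.60, 6.81 and 5.68 at 48 hpi. The control pools lay close together (SD 0.02, n = 3), while the injured pools spread widely (SD 0.96, n = 3), with replicate 3 the lowest. The change was −2.63 (SE 0.40, 95% confidence interval −3.55 to −1.71, limma adjusted p = 0.00209), or 6.19-fold higher in control. Only 45 of the 45037 probe sets had a more negative change. Without 48 hpi replicate 3 the change was −2.12, and with the unmoderated test the adjusted p was 0.0522, which ended the call.

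Atp6v1c2 encodes a restricted form of subunit C, which links the rotor housing of V1 to the membrane sector and is released when the pump comes apart. Its probe set (1430306_a_at) read 8.93, 9.46 and 9.08 in control and 8.05, 7.43 and 7.18 at 48 hpi. All injured pools were below all control pools, again with replicate 3 the lowest. The change was −1.60 (SE 0.23, limma adjusted p = 0.00159), or 3.04-fold higher in control, and 353 probe sets had a more negative change. Of the restricted members Atp6v1c2 was the only one called lower under each of the 20 alternatives run, with changes from −1.85 to −1.26.

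Atp6v0d2, the d2 subunit at the foot of the central stalk, known from osteoclasts and kidney, was not above background on either of its probe sets. The brighter (1434798_at) read 3.49, 3.02 and 3.29 in control and 3.24, 2.99 and 3.04 at 48 hpi, and its change was −0.18 (SE 0.14, limma adjusted p = 0.386). The other (1444176_at) had a log2 change of −0.07 (SE 0.13). Atp6v0a4 encodes the a4 subunit, part of the proton path in intercalated cells. Its values (1422030_at) were 3.36, 3.44 and 3.32 in control and 3.23, 2.95 and 3.44 at 48 hpi, with a log2 change of −0.17 (SE 0.13, limma adjusted p = 0.379). For both genes the groups overlapped, and with equal hybridization controls the sign of the change turned (0.17 for each). With control means at −1.67 and −1.56 relative to the background level, these arrays did not measure a level from which a fall could be read.

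Of the 3 ubiquitous members 1 was higher and 1 was lower, beside 18.4% and 16.1% of all genes by brightest probe set. Atp6v1a, the catalytic subunit A, had 2 bright probe sets that gave nearly the same result. On the brighter (1450634_at) the values were 9.48, 9.46 and 9.35 in control and 9.59, 9.39 and 9.50 at 48 hpi, and the groups overlapped. Its change was 0.06 (SE 0.09, 95% confidence interval −0.15 to 0.28, limma adjusted p = 0.67), and that of the other probe set (1422508_at) was 0.07 (SE 0.09). The sign depended on the scaling, with −0.066 after repeated quantile normalization. Atp6v1c1, the widely expressed form of subunit C, rose. Its values (1419545_a_at) were 9.14, 9.04 and 9.23 in control and 9.51, 9.50 and 9.62 at 48 hpi, with no overlap. The change was 0.41 (SE 0.09, limma adjusted p = 0.0118), or 1.32-fold. The other probe sets of Atp6v1c1 had changes of 0.37 (SE 0.09, limma adjusted p = 0.0195) and 0.30 (SE 0.10, limma adjusted p = 0.0524), and on each of the 3 all injured pools were above all control pools. Without control replicate 2 the call on the brightest was lost (0.36, limma adjusted p = 0.0514), as it was after repeated quantile normalization (0.27, limma adjusted p = 0.0594). Atp6v1b2, the B subunit of most cells, read 8.54, 8.68 and 8.82 in control and 8.37, 8.33 and 8.09 at 48 hpi on its brightest probe set (1415814_at). Its change was −0.41 (SE 0.12, limma adjusted p = 0.0299), a call that was lost under 9 of 20 alternatives, among them leaving out control replicate 2 or 3 or 48 hpi replicate 2 or 3, with adjusted p from 0.0113 to 0.832. The other 3 probe sets of Atp6v1b2 had changes from −0.34 to 0.02 and were not called, and 2 of them were not above background.

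The paralogs of subunits B and C allowed the change of a restricted form to be set against that of its widely expressed counterpart within each pool. The log2 value of Atp6v1c2 minus that of Atp6v1c1 was −0.21, 0.42 and −0.15 in the control pools and −1.46, −2.07 and −2.44 at 48 hpi. The zero of such a difference has no meaning, since 2 probe sets differ in brightness for the same amount of RNA, but its shift between the groups does. The mean shifted by −2.01 (SE 0.35), so that Atp6v1c2 lost 4.03-fold relative to Atp6v1c1. For Atp6v1b1 minus Atp6v1b2 the differences were 0.80, 0.63 and 0.53 in control and −0.77, −1.52 and −2.40 at 48 hpi. This mean shifted by −2.22 (SE 0.48), or 4.65-fold. In both pairs the groups did not overlap (two-sided p = 0.1 by exact permutation of the 6 pools, which is as low as 3 against 3 can go). Over the combinations of probe sets the shift ranged from −2.01 to −1.91 for subunit C and from −2.65 to −2.22 for subunit B. The pairs of subunits d and a carry little information, because Atp6v0d2 and Atp6v0a4 were within background. Their shifts were 0.41 (SE 0.21) against Atp6v0d1 and 0.32 (SE 0.23) against Atp6v0a1 (two-sided exact permutation p = 0.1 and p = 0.4), beside changes of −0.58 and −0.49 for the partners themselves, and over the combinations of probe sets the shift of Atp6v0a4 ran from −0.63 to 0.32. The p-values of the 4 pairs were not adjusted, since none could pass 0.05.

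**Figure D2:**
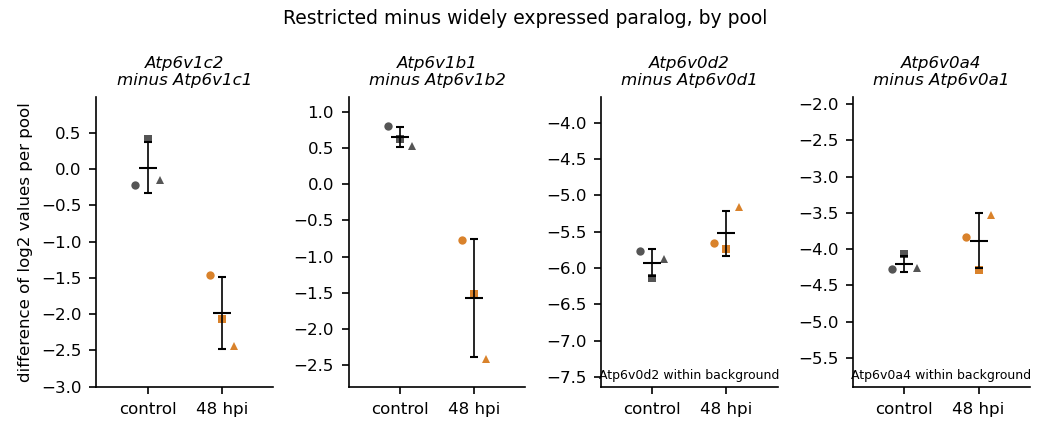
Difference of the log2 values of a restricted and a widely expressed paralog in each pool (vertical axis), in control (grey) and at 48 hpi (orange), with mean and SD as bars and the same span on each axis. The differences for subunits C and B drop at 48 hpi without overlap, with mean shifts of −2.01 and −2.22, while the pairs with Atp6v0d2 and Atp6v0a4, both within background, do not drop.

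Most of the remaining subunits of the pump were not called, and those called fell by 0.33 to 0.64. Together with the ubiquitous members, 19 widely expressed or other subunit and accessory genes were measured. Of these, 1 was higher and 7 were lower, beside 18.4% higher and 16.1% lower among all genes by their brightest probe set. The median change of the 19 was −0.23. The lower count was 3 without control replicate 3, 4 without control replicate 2 or 48 hpi replicate 2 and 5 or 6 without another. With equal hybridization controls 1 was higher and 0 lower, and the median turned to 0.12. In V1, Atp6v1g1, a subunit of the peripheral stalk, fell by 0.64 (SE 0.13, limma adjusted p = 0.00791), from 11.2 ± 0.08 to 10.5 ± 0.24 (SD over n = 3 pools). Its neighbour in the stalk, Atp6v1e1, fell by 0.33 (SE 0.09, limma adjusted p = 0.0263), and this call held in 10 of 20 alternatives, being lost without control replicate 2 or 3 or any 1 of the 48 hpi pools. The rotor genes Atp6v1d (−0.23, SE 0.10) and Atp6v1f (−0.21, SE 0.08) and the regulatory Atp6v1h (−0.09, SE 0.11) did not pass the test. Atp6v1e2 and Atp6v1g2, known from testis and neurons, were not above background (changes 0.03 and −0.06).

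In V0, Atp6v0a1, a widely expressed a subunit, fell from 7.58 ± 0.06 to 7.09 ± 0.13 (SD over n = 3 pools), a log2 change of −0.49 (SE 0.10, limma adjusted p = 0.00749). A dimmer probe set of the same gene was called higher (0.46, SE 0.15, limma adjusted p = 0.0471), from a level within background, and the mean over its probe sets changed by −0.01. Atp6v0d1, the widely expressed d subunit, had a log2 change of −0.58 (SE 0.17, limma adjusted p = 0.0342), which was called in 11 of 20 alternatives and lost without any 1 of the control pools or 48 hpi replicate 2. The accessory genes Atp6ap1 and Atp6ap2, whose products sit in the V0 sector, fell by 0.41 (SE 0.09) and 0.45 (SE 0.11), and the 2 other probe sets of Atp6ap2 were also called lower, although its call was lost without control replicate 3. Atp6v0a2 (−0.23, SE 0.10), Tcirg1, which encodes the a3 subunit of osteoclasts and lysosomes (−0.27, SE 0.09), Atp6v0b (−0.10, SE 0.08), Atp6v0e (0.06, SE 0.09) and Atp6v0e2 (−0.16, SE 0.14) were not called. Atp6v0c was not measured by a probe set of its own symbol. The changes of the 16 subunit and accessory genes outside the members ran from −0.64 to 0.06, against −1.60 and −2.63 for Atp6v1c2 and Atp6v1b1.

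**Figure D3:**
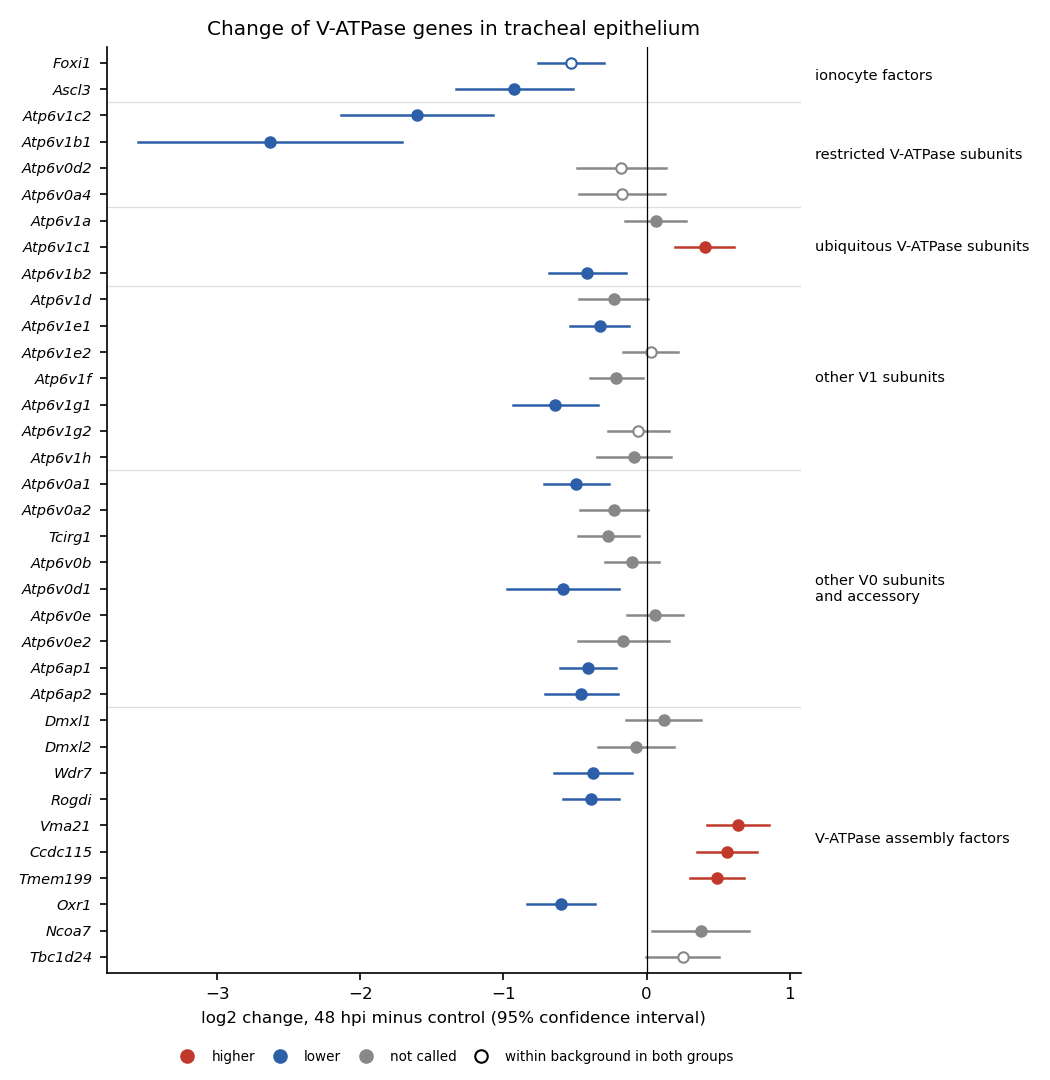
Log2 change, 48 hpi minus control (horizontal axis), of each measured member, V-ATPase subunit, assembly factor and gene for a V1-binding protein. Lines are limma's 95% confidence intervals from 3 pools a group. Genes called higher are red, those called lower blue and the others grey, and open circles are genes within background in both groups. Atp6v1b1 and Atp6v1c2 lie at −2.63 and −1.60, while the other subunits lie between −0.64 and 0.41.

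Of 10 genes for assembly of the pump or for proteins of a V1-binding family, 3 were higher and 3 were lower. Among all genes by their brightest probe set 18.4% were higher and 16.1% lower. The 3 that rose, Vma21, Ccdc115 and Tmem199, act in the endoplasmic reticulum, where the V0 sector is put together. Ccdc115 went from 6.26 ± 0.04 to 6.83 ± 0.10 (SD over n = 3 pools), a log2 change of 0.56 (SE 0.09, limma adjusted p = 0.00266), and Tmem199 from 7.26 ± 0.04 to 7.75 ± 0.04, a log2 change of 0.49 (SE 0.08, limma adjusted p = 0.00314). Both were called higher in every alternative run. Vma21 had a log2 change of 0.64 (SE 0.10, limma adjusted p = 0.00189) on its brightest probe set, but 2 others were called lower (−0.53 and −0.51) and a further one higher (0.36), and their mean changed by −0.01. The genes that fell were Wdr7 (−0.37, SE 0.12) and Rogdi (−0.39, SE 0.08), partners in the complex that joins V1 to V0, and Oxr1 (−0.60, SE 0.10), which belongs to a family of proteins that bind V1. None of these 3 was called with equal hybridization controls. Wdr7 held in 9 of 20 alternatives, being lost without control replicate 2 or 3 or any 1 of the 48 hpi pools. The other probe sets of Oxr1 changed by 0.23 (SE 0.10) and −0.01 (SE 0.09) and were not called. On the mean of its probe sets the call of Oxr1 was lost. Dmxl1 (0.12, SE 0.11), Dmxl2 (−0.08, SE 0.11), Ncoa7 (0.38, SE 0.15) and Tbc1d24 (0.25, SE 0.11) were not called, although Ncoa7 was called higher without 48 hpi replicate 3.

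Several other markers of ionocytes fell as well, while Cftr was within background. Of 11 measured markers besides Foxi1 and Ascl3, 6 were lower and 0 higher, beside 16.1% and 18.4% of all genes by brightest probe set. The median change of the 11 was −0.50. With the unmoderated test after adjustment 2 were lower, and with equal hybridization controls 2 were lower and 1, Cftr, was higher. Asgr1, a subunit of the asialoglycoprotein receptor best known from liver, fell from 6.58 ± 0.30 to 4.14 ± 0.30 (SD over n = 3 pools), a log2 change of −2.44 (SE 0.19, limma adjusted p = 0.000113), and ended within background. Tfcp2l1, a transcription factor that works with Foxi1 in kidney, fell from 7.17 ± 0.24 to 6.12 ± 0.36 (SD over n = 3 pools), a log2 change of −1.05 (SE 0.19, limma adjusted p = 0.00481). Both kept their calls with equal hybridization controls. Moxd1, a monooxygenase-like gene that ended within background (−0.63, SE 0.13), and Dmrt2, a transcription factor gene (−0.51, SE 0.11), also fell, while Hepacam2 (−0.80, SE 0.13) and Coch (−0.45, SE 0.14) were called lower within background, Coch in 7 of 19 alternatives and not without control replicate 1 or 2 or any 1 of the 48 hpi pools. Pparg (−0.29, SE 0.09), Bsnd, which encodes a chloride channel subunit (−0.12, SE 0.09), Stap1 (−0.50, SE 0.23) and P2ry14 (−0.06, SE 0.15) were not called, although Pparg was called lower without 48 hpi replicate 1. Cftr, the chloride channel that ionocytes are known for, measured 3.76 ± 0.16 in the control pools against 4.09 ± 0.33 after injury (SD over n = 3 pools), within background in both (change 0.33, SE 0.17, limma adjusted p = 0.187). The defining ionocyte genes Foxi1 and Cftr were thus both below the background measure in uninjured epithelium, whereas Ascl3 and 6 of the 11 further markers were above it.

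**Figure D4:**
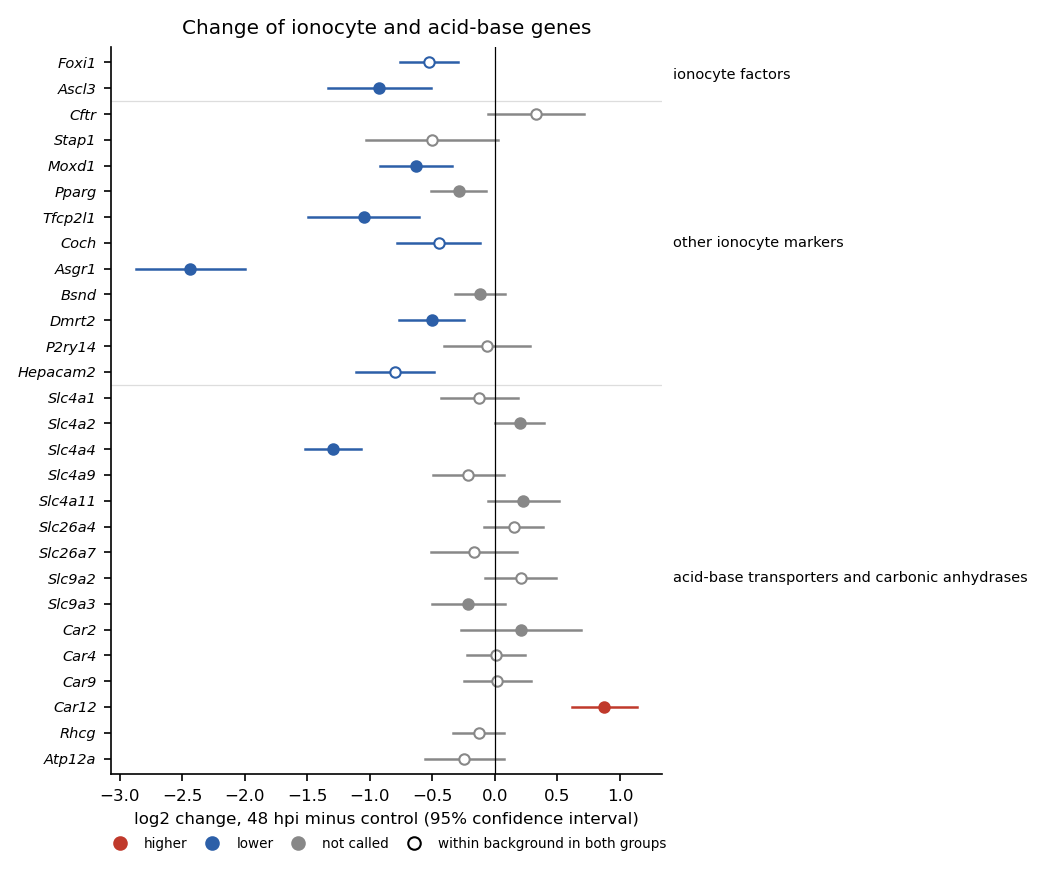
Log2 change, 48 hpi minus control (horizontal axis), of ionocyte factors, other ionocyte markers and acid-base genes, with limma's 95% confidence intervals from 3 pools a group. Colours and open circles are as in the plot of V-ATPase genes. Asgr1 at −2.44, Slc4a4 at −1.30 and Tfcp2l1 at −1.05 are the lowest, and Car12 at 0.87 is the gene called higher.

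Genes for acid-base transport showed no common direction. Of 15 measured transporters and carbonic anhydrases, 1 was higher and 1 lower, beside 18.4% and 16.1% of all genes by brightest probe set. Of the 15, 6 were above background in control. Slc4a4, which encodes a sodium bicarbonate cotransporter, fell from 8.12 ± 0.12 to 6.83 ± 0.08 (SD over n = 3 pools), a log2 change of −1.30 (SE 0.10, limma adjusted p = 0.000102). Car12, a carbonic anhydrase of the cell surface, rose on its brightest probe set from 5.31 ± 0.12 to 6.18 ± 0.16 (SD over n = 3 pools), a log2 change of 0.87 (SE 0.11, limma adjusted p = 0.000985), while the mean over its probe sets changed by 0.24 and was not called. The genes that accompany the pump in intercalated cells, Slc4a1, Slc4a9, Slc26a4, Slc26a7 and Rhcg, were within background. Of 19 measured lysosome genes 9 were lower and 1 was higher, beside the same 16.1% and 18.4% of all genes. The median change of the 19 lysosome genes was −0.23. With equal hybridization controls 2 were lower and the median turned to 0.11, and with the unmoderated test after adjustment 3 were lower. Ctsh, a cathepsin, had a log2 change of −1.19 (SE 0.12) and Mitf, a regulator of lysosome genes, one of −1.17 (SE 0.11) that ended within background, and Npc1, a lysosomal cholesterol transporter, one of −0.57 (SE 0.09). Tfeb and Tfe3, related regulators, had changes of 0.05 and −0.03 and were not called. Gla, a lysosomal galactosidase, was called higher (1.28, SE 0.12), from a control level at background.

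Markers of other cells moved in the same pools, and their part in the results above was not tested. Lower calls were made for 9 of 10 ciliated, 7 of 9 secretory and 4 of 8 tuft cell markers (Trpm5, Dclk1, Alox5ap and Avil). Their median changes were −1.27, −0.96 and −0.42, and 16.1% of all genes by brightest probe set were called lower. The secretory count was 3 without control replicate 2, 4 without control replicate 3 and 1 with the unmoderated test after adjustment. The ciliated count was 6 without control replicate 2 or 3 or 48 hpi replicate 3 and with that test, and the tuft cell count was 2 with that test or with equal hybridization controls. Avil was not called without control replicate 3. The summed linear RMA signal of the secretory markers was 111275 to 113816 in control and 48872 to 83921 at 48 hpi, lowest in replicate 3. That of the ciliated markers was 1407 to 3590 and 428 to 892. That of the tuft cell markers was 408 to 464 and 209 to 301. Among 8 basal cell markers Krt5 (0.69, SE 0.11) and Krt14 (3.18, SE 0.34) were higher and Ngfr (−0.66, SE 0.14) and Pdpn (−0.35, SE 0.10) were lower. Pdpn was called in 10 of 20 alternatives, and not without any 1 of the control pools, without 48 hpi replicate 1 or 2, with the replicate block or with equal hybridization controls. The median change of the 8 basal cell markers was −0.19, while their summed signal was 9384 to 10457 in control and 12057 to 15183 at 48 hpi. Of 12 markers of macrophages and osteoclasts, cells that also use Atp6v0d2, Csf1r, Ctsk and Lyz2 were lower and Acp5 was higher, with a summed signal of 14466 to 17437 in control and 1892 to 7374 at 48 hpi, most of it from Lyz2 and Cd14. Lyz2 was not called without any 1 of the control pools, and Acp5 was not called without control replicate 2 or 3 or 48 hpi replicate 2. Ptprc, Adgre1 and Itgam, also among the 12, were within background in both groups, after CD45+ leukocytes had been depleted. Of 8 submucosal gland markers Dmbt1, Ltf and Bpifb1 were lower, and the other 5 were not called. The median change of the 8 was −0.11, and with equal hybridization controls 3 were lower and 1 was higher. Their summed signal was 26992 to 29931 in control and 8389 to 14779 at 48 hpi. Of 4 thyroid markers Tshr was called lower within background, but not without 48 hpi replicate 3, and Tg was within background. Of 5 neuroendocrine markers Scg2 was lower within background, but not without control replicate 1 or 3 or 48 hpi replicate 2 or 3. Of 9 fibroblast and smooth muscle markers Dcn and, within background, Myh11 were lower, and the other 7 were not called. The median change of the 9 was 0.11, and with equal hybridization controls 4 were higher and 1 was lower. Myh11 was not called without control replicate 2 or 48 hpi replicate 1 or 2. Of 6 cartilage markers Chad was lower (−2.68, SE 0.42) and the other 5 were not called. Only 2 of the 6 were above background in control, and the median change of the 6 was −0.19. The list's summed signal was 2934 to 4045 in control and 321 to 924 at 48 hpi.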

How the data were processed

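RNA from 3 control and 3 48 hpi pools of tracheal epithelium was profiled on Affymetrix mouse genome arrays. The authors deposited log2 values, normalized by RMA in Partek 6.5, with Affymetrix Expression Console 1.1 also named in the submitters' processing notes. These lie between 2.01 and 14.6, with array medians of 4.88 to 4.99. RMA equalizes probe intensities between arrays, so a shift of most genes cannot be seen, and it compresses changes near background. The table lists 45101 probe sets, of which 64 are controls and were left out of the tests. The array annotation gave 1 symbol to 34945 probe sets, several to 932 and none to 9160.

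Each probe set was tested with limma 3.58.1 in R 4.3.3 without a block (lmFit and eBayes, default settings), and p-values were adjusted over all 45037 (Benjamini-Hochberg), and those below 0.05 were called. Paralog differences were compared by an exact permutation test over 20 arrangements. The limma fit was tested on simulated data with known changes. The study's methods name an ANOVA for the arrays, and the unmoderated test is not the study's own. The number of arrays limits the precision. Array correlations across probe sets were 0.992 to 0.996 within control and 0.990 to 0.996 within 48 hpi, with 48 hpi replicate 3 at 0.990 and 0.992 to the others of its group. The named genes are the members, the V-ATPase genes and, of every other list, called members with the smallest p (all in lists of 8 or fewer genes, otherwise up to 4), along with Cftr, and some uncalled genes are named beside them. Genes with a pattern like that of Foxi1 were not sought, because Foxi1 was within background. The members and lists were chosen with earlier results of these data known. The 20 alternatives were the removal of each array, 3 rescalings (quantile normalization, a common median, equal hybridization controls), limma with a trend, a robust prior, array weights or the replicate number as a block, an unmoderated unpaired test with and without adjustment, removal of dim probe sets, 3 rules for genes with several probe sets, and a threshold of 0.01. Python 3.11.15 with matplotlib 3.10.9 made the plots.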

Additional observations from a re-analysis of the deposited data

How the results depend on the processing

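Leaving out 1 array at a time gave 5210 to 5904 probe sets higher and 4051 to 5860 lower, the lowest without control replicate 2, against 6512 and 6267 with all arrays. The restricted genes called lower were 4 each time, and the ubiquitous genes called higher 0 to 1, with 0 without control replicate 2. Under these settings the shift of Atp6v1c2 against Atp6v1c1 ran from −2.28 to −1.78 and that of Atp6v1b1 against Atp6v1b2 from −2.61 to −1.80. The ubiquitous genes called higher were also 0 after repeated quantile normalization and at an adjusted p below 0.01. The restricted genes called lower were 2 with the unmoderated test after adjustment and 2 with equal hybridization controls. The probe sets called lower were 2948 with that test, 1480 with equal hybridization controls and 2971 at an adjusted p below 0.01. With 1 value per gene, 3527 were higher and 3191 lower on the brightest probe set, and 3314 and 2960 on the mean of probe sets, where fewer values were tested. The sign turned for Atp6v0a4 (0.17) and Atp6v0d2 (0.17) with equal hybridization controls, for Atp6v1a (−0.066) after repeated quantile normalization, and for the shift of Atp6v0a4 against Atp6v0a1 (−0.16) on the mean of probe sets. The cause of these differences was not tested, beyond the smaller number of values with 1 per gene. With the filter on dim probe sets Foxi1, Atp6v0d2 and Atp6v0a4 gave no value.

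The labels share replicate numbers, and deviations of same-numbered arrays correlated at 0.204, 0.0824 and 0.193. Arrays of different numbers correlated at −0.213 to −0.027, so that each array correlated best with its own number. Neither the labels nor the study's methods name a pairing, and the main test used none. Whether same-numbered pools shared a batch was not tested. With the replicate block 6533 probe sets were higher and 7019 lower, and the restricted and ubiquitous counts stayed at 4 lower and 1 higher. The signal over background limits Foxi1, Atp6v0d2, Atp6v0a4 and Cftr.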
